A study of Mus musculus with 16 samples.

Results

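The proteasome genes were followed in nuclei of the dentate gyrus (DG) of WT mice and of mice carrying the V321L mutation, a valine-to-leucine change in the membrane-spanning part of Neuregulin1 (Nrg1) that diminishes signaling from the membrane to the nucleus. Members were all genes of the deposited RNA tables whose symbol begins with Psma, Psmb, Psmc, Psmd, Psme, Psmf or Psmg followed by a digit, with names marked as pseudogenes left out. This gave 50 of 32285 genes, 19 of the 20S core (Psma and Psmb) and 31 of the regulatory and assembly group. The members are named by symbol alone, and the rule also took in Psmc3ip, a cofactor of meiotic recombination that is no proteasome subunit, and Psme2b, an intronless copy of Psme2.

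The proteasome is the cell's main machine for degrading proteins tagged with ubiquitin. Its 20S core is a barrel of alpha and beta rings, and 3 of the beta subunits, Psmb5, Psmb6 and Psmb7, hold the proteolytic sites. The 19S regulatory particle recognizes and unfolds substrates with a ring of ATPases (Psmc) and non-ATPase subunits (Psmd), other activators (Psme) can dock in its place, and chaperones (Psmg and some Psmd genes) guide assembly. Under interferon, Psmb8, Psmb9 and Psmb10 replace the standard catalytic subunits to form the immunoproteasome. In neurons the proteasome turns over synaptic and nuclear proteins.

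Each of 4 WT mice (genotype VV) and 4 V321L mice (genotype LL), 2 females and 2 males of each genotype labelled F1, F2, M1 and M2, gave 1 Multiome library, in which RNA and accessible chromatin are read from the same nuclei of frozen microdissected tissue. The mice were not treated, and the ages of the mice sequenced were not given in the sources used here. A point mutation cannot be checked in counts per gene, so the genotypes rest on the labels. Granule cells (GCs) and the other classes were gated nucleus by nucleus on marker UMIs (unique molecular identifiers, the count of RNA molecules), which left 5457 WT and 3630 V321L GCs in 16335 nuclei. All 12 GC markers were detected in both genotypes, but the gate used these same markers, so this is no separate check. Of the nuclear barcodes, 160 occurred in more than 1 library.

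The libraries of the 2 genotypes differed in more than the members. Total RNA ran from 4326426 to 14624265 UMIs per WT library and from 15505354 to 23582057 per V321L library, and WT M1 was the shallowest. The median mitochondrial share of a nucleus ran from 0.0695% to 0.124% in WT mice and from 0.39% to 1.16% in V321L mice, with V321L F1 and M2 above V321L F2 and M1. In GCs the nuclear RNA Malat1 was also higher, at 7666 to 10080 CPM (UMIs of a gene scaled to a common library total) in WT and 35550 to 49170 in V321L mice. In GCs the summed GC markers were at 8412 CPM in WT and 5702 in V321L mice, and the markers of each of the other 7 classes were also lower in V321L mice, from 353 to 296 CPM for oligodendrocyte markers and from 239.7 to 207 for astrocyte markers. The part of these library differences in the results was not tested. The p-values below set each difference against the spread between mice. Where classes of the same mice were compared, the mouse was a block, and the spread is that left within mice.

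Promoter sequences are shown for the genes that carry the contrast described next, the catalytic subunits Psmb5 and Psmb6, which rose, and the 2 members that fell in GCs, Psmd14 and Psme4. Each line gives 150 bases upstream of the annotated start, 5′ to 3′ on the gene's strand (RefSeq, GRCm38.p6), and capitals mark every match to a searched motif. Psmb5 (chr14:54617996-54618145, minus strand) holds TGACNNNGC, the core of the antioxidant response element. Psmb6 (chr11:70525174-70525323, plus strand) holds GGGCGG, the SP/KLF box. Psmd14 (chr2:61711544-61711693, plus strand) holds 3 SP/KLF boxes and 1 match to the NRF1 motif. NRF1 here stands for nuclear respiratory factor 1, not for Nfe2l1, which is known by the same short name. Psme4 (chr11:30771625-30771774, plus strand) holds an SP/KLF box overlapping the ETS motif CCGGAAG.
Psmb5: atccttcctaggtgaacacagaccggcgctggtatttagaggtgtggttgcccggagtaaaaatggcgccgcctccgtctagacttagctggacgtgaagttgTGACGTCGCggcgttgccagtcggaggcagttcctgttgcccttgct
Psmb6: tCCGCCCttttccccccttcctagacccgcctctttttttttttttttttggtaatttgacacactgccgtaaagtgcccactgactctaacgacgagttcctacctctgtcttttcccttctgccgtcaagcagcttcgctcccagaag
Psmd14: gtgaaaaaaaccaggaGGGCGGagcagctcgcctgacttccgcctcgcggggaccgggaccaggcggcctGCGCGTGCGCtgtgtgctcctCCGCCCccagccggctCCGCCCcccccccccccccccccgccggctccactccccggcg
Psme4: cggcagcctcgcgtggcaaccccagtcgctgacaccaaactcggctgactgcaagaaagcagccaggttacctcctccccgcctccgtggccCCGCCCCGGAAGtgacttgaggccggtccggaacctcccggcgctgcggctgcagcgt

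Most proteasome genes were higher in V321L GCs. Of the 45 members with at least 40 UMIs over the 8 mice, 37 rose and 2 fell, and 6 did not pass the test (edgeR quasi-likelihood test on UMIs summed per mouse, Benjamini-Hochberg adjusted p under 0.05 over 13518 genes). Among all genes tested, 37.0% rose and 29.4% fell, so changes were common throughout. The median log2 fold change of the members was 1.44 against 0.13 for all genes. Where the mice were scaled by library size in place of TMM (the trimmed mean of M-values, which centres most genes), 42 members rose and 2 fell and the median of all genes moved to 0.57, with 76.1% of called genes higher in place of 55.7%. Relative to that median the members stood 1.30 higher with library sizes and 1.31 higher with TMM. A change of scaling shifts every gene by nearly the same amount, so these 2 values had to be close and are no separate check.

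In the 20S core 14 of 15 tested genes rose (median log2 fold change 1.59), and in the regulatory and assembly group 23 of 30 rose and 2 fell (median 1.40). Summed over members and scaled only by library size, the 20S core took 284 to 376 CPM in WT GCs and 832 to 1441 in V321L GCs. The regulatory and assembly group took 876 to 992 and 1357 to 1729. The genotypes did not overlap in either sum. Nor did they in the sums of ribosomal protein genes (496 to 1249 and 8815 to 18730) or oxidative phosphorylation genes (941 to 1553 and 5582 to 10110), so the separation was not particular to the members.

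**Figure D1:**
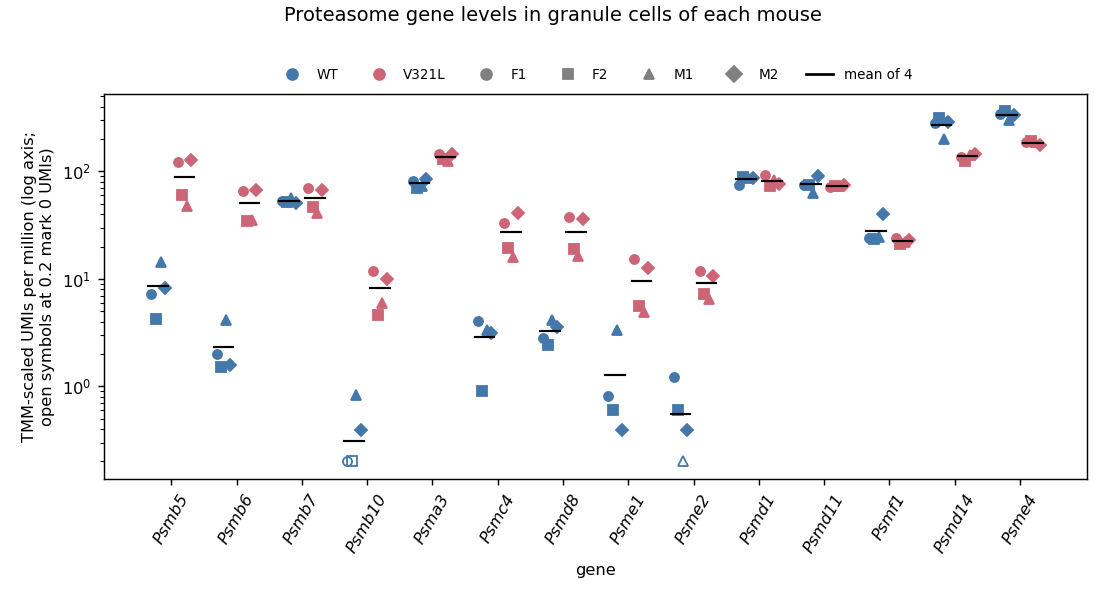
CPM in GCs, scaled by TMM, of 14 proteasome genes on a log axis, with 1 symbol per mouse (shape for the mouse label, blue for WT and red for V321L) and a line at the mean of 4 mice. Psmb5, Psmb6 and Psmb10 in V321L mice lie above every WT mouse, Psmd14 and Psme4 lie below every WT mouse, and Psmb7, Psmd1, Psmd11 and Psmf1 overlap.

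The 3 standard catalytic subunits did not move together. Psmb5, which carries the chymotrypsin-like site (chr14:54614120-54617995), was at 7.25, 4.24, 14.2 and 8.27 TMM-scaled CPM in WT F1, F2, M1 and M2, and at 122, 60.8, 47.3 and 127 in the same order of V321L mice. Every V321L mouse was above every WT mouse, and V321L F1 and M2 were above F2 and M1. The log2 fold change was 3.54 ± 0.376 (SE, n = 4 and 4 mice, adjusted p = 2.27e-06 by the edgeR test).

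Psmb6, which carries the caspase-like site (chr11:70525324-70527858), was at 2.01, 1.51, 4.19 and 1.57 CPM in WT mice and at 65.7, 34.5, 35.0 and 67.2 in V321L mice. This was the largest rise of a standard subunit, with no overlap (log2 fold change 4.61 ± 0.362 SE, adjusted p = 2.46e-07 by edgeR). It rested on 19 UMIs over all WT GCs and 810 over V321L GCs.

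Psmb7, which carries the trypsin-like site (chr2:38588046-38643952), was at 53.2, 51.8, 56.9 and 50.8 CPM in WT mice and at 70.7, 46.9, 41.2 and 67.8 in V321L mice. The groups overlapped, with V321L F1 and M2 above all WT mice and F2 and M1 below them (log2 fold change 0.09 ± 0.168 SE, adjusted p = 0.638 by edgeR). Among the structural beta subunits Psmb3 (2.93), Psmb4 (2.77), Psmb1 (1.59) and Psmb2 (0.38) rose, as log2 fold changes.

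All 7 alpha subunits, which form the outer rings and the gate of the barrel, rose, by 0.77 (Psma2) to 2.73 (Psma7) on the log2 scale. Psma7 stood at 9.69 to 17.3 CPM in WT and at 63.9 to 117 in V321L mice. Psma3 was at 69.7 to 85.0 and at 126 to 146, a smaller difference but with less spread (log2 fold change 0.82 ± 0.110 SE, adjusted p = 1.67e-05 by edgeR).

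Of the immunoproteasome subunits, Psmb10 was almost missing from WT GCs and present in every V321L mouse. It had 0, 0, 1 and 1 UMIs in WT F1, F2, M1 and M2 and 47, 28, 22 and 32 in the V321L mice. The ratio of CPM summed over mice was 50.2 (95% exact interval 13.6 to 419, counting error only). The fitted log2 fold change of 5.0 ± 0.688 (SE, adjusted p = 2.09e-05 by edgeR) depends on the prior count at such low WT counts.

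Psmb8 and Psmb9 were under the count minimum. Psmb8 had 0 UMIs in all WT GCs and 2, 2, 1 and 5 in V321L F1, F2, M1 and M2, or 2.6-fold against a floor of 3 UMIs over the WT group. Psmb9 had 0 UMIs in WT and 1, 0, 0 and 4 in V321L F1, F2, M1 and M2, or 1.3-fold on the same floor. Both ratios take the V321L count as exact, so at these few UMIs they are not bounds. Psmb11, known from the thymus, had 1 and 2 UMIs, and Psma8, known from the testis, had 1 and 0. Psme2b had 0 and 2 UMIs. These 5 members were not tested.

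The ATPase ring rose in 5 of 6 genes, from 0.65 (Psmc6) to 3.33 (Psmc4) on the log2 scale. Psmc4 (chr7:28041702-28050092) was at 4.03, 0.909, 3.35 and 3.15 CPM in WT mice and at 33.1, 19.5, 16.1 and 40.8 in V321L mice, with no overlap (log2 fold change 3.33 ± 0.407 SE, adjusted p = 7.52e-06 by edgeR). Psmc2 was not called at 34.6 to 44.5 and 36.3 to 65.6 (log2 fold change 0.30, adjusted p = 0.186 by edgeR).

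The other 19S subunits split. Of 11, 8 rose, led by the lid subunits Psmd8 (3.12) and Psmd7 (2.42) as log2 fold changes, and Psmd4, a ubiquitin receptor, rose by 1.55. Psmd1, a scaffold of the base, and Psmd11, a lid subunit, were not called. Psmd1 was at 74.5 to 89.4 CPM in WT and 73.2 to 93.2 in V321L mice (log2 fold change −0.05, adjusted p = 0.721 by edgeR), and Psmd11 was at 63.6 to 90.5 and 71.0 to 75.4 (−0.07, adjusted p = 0.612).

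Psmd14, the deubiquitinase of the lid that removes ubiquitin chains before degradation (chr2:61711694-61800376), fell. It was at 282, 317, 198 and 291 CPM in WT mice and at 137, 125, 143 and 146 in V321L mice. All V321L mice lay below all WT mice, and WT M1 was the lowest WT mouse (log2 fold change −0.99 ± 0.132 SE, adjusted p = 1.54e-05 by edgeR).

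The activators split in the same way. Psme4, the large nuclear activator also called PA200 (chr11:30771775-30881150), fell from 343, 362, 299.8 and 335 CPM in WT mice to 188, 191, 187 and 176 in V321L mice. The groups were well apart, with little spread within each (log2 fold change −0.86 ± 0.0967 SE, adjusted p = 3.83e-06 by edgeR). Psmf1, an inhibitor of the core, was not called at 23.6 to 40.2 and 21.0 to 24.3 (−0.32, adjusted p = 0.129), and WT M2 was the highest mouse.

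Psme1 and Psme2, the interferon-responsive activator pair also called PA28, rose from low WT levels. Psme1 had 2, 2, 4 and 1 UMIs in WT F1, F2, M1 and M2 and 60, 34, 18 and 40 in the V321L mice (log2 fold change 3.23 ± 0.589 SE, adjusted p = 0.000246 by edgeR). Psme2 had 3, 2, 0 and 1 and then 47, 44, 24 and 34 (3.76 ± 0.460 SE, adjusted p = 7.42e-06). Neither gene overlapped between the genotypes in TMM-scaled CPM. Psme3, the nuclear homologue of this pair, rose by 1.05.

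All 7 assembly chaperones rose, by 0.97 (Psmg1) to 2.27 (Psmg3) on the log2 scale. Psmd9, a chaperone of the base, was at 14.8 to 22.6 CPM in WT and 45.5 to 55.0 in V321L mice. It was the only 1 of 45 tested members in which both V321L F2 and M1, at 55.0 and 53.8, lay above F1 and M2. In 37 members F1 and M2 both lay above F2 and M1, and the share of all genes in that order was not computed. Summed ribosomal protein RNA in GCs, scaled by library size, had the same order. It was at 17730 and 18730 CPM in F1 and M2 and at 8815 and 9200 in F2 and M1. Psmc3ip was not called (0.87 ± 0.476 SE).

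**Figure D2:**
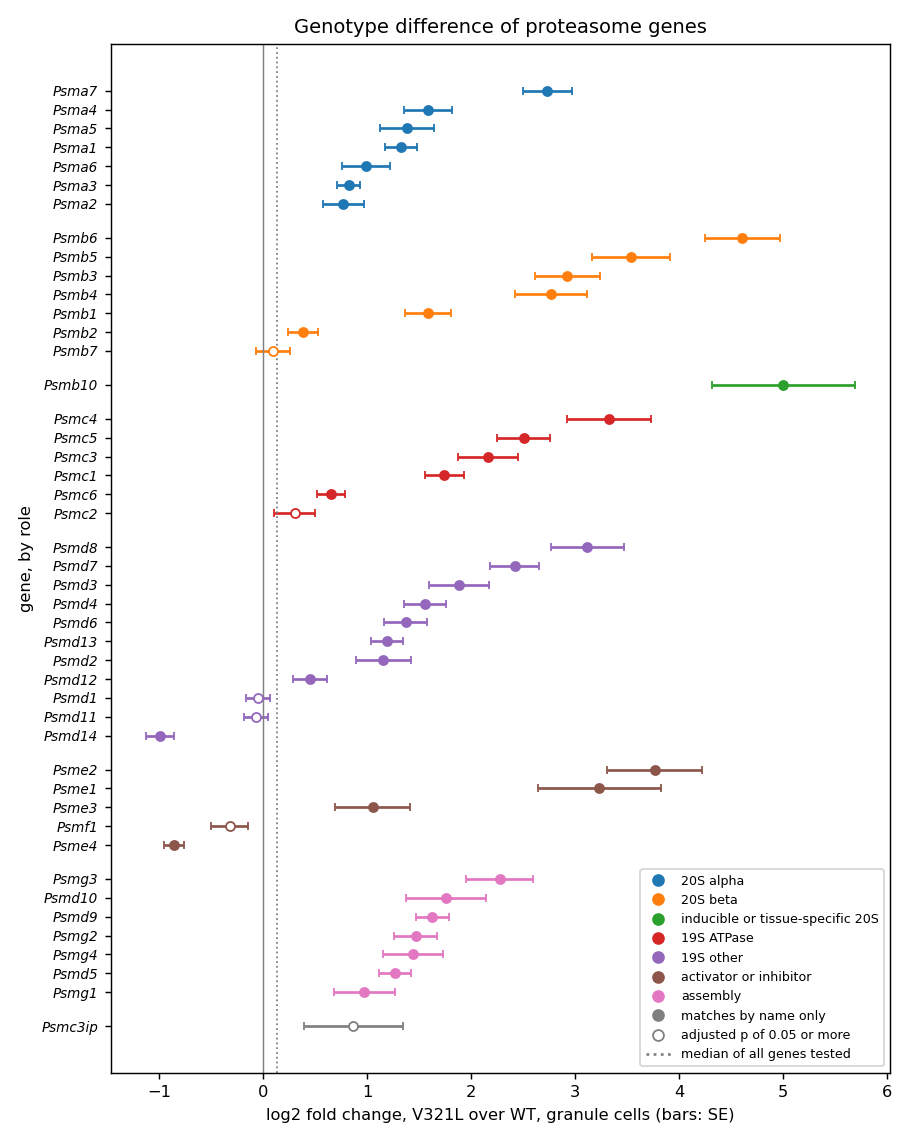
Log2 fold change in GCs, V321L over WT, of the 45 tested members by role, with bars for the SE. Filled symbols passed the adjusted p of 0.05, and the dotted line marks the median of all genes tested at 0.13. Every alpha subunit and chaperone lies to the right of the line, and Psmd14 and Psme4 lie left of 0.

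The size of the difference followed the length of the gene, a property the selection did not use. All 50 members had a span from start to end in RefSeq. Over the 45 tested members the log2 fold change and the span were related with Spearman's rho of −0.80, against −0.68 over 12663 of the 13518 genes tested that had a span. Within the 20S core rho was −0.89 (15 genes), and within the regulatory and assembly group −0.75 (30 genes). These are descriptions across genes of the same libraries, and genes are not independent replicates.

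The median log2 fold change was 3.39 in the 8 members spanning under 5 kb and 2.16 in the 11 of 5 to 10 kb. It was 1.23 in the 14 of 10 to 20 kb and 0.90 in the 8 of 20 to 50 kb. In the 4 members over 50 kb, Psmb7, Psmd1, Psmd14 and Psme4, the median was −0.45. The other genes tested had medians of 2.27, 1.31, 0.74, 0.11 and −0.61 in the same bins. Both catalytic subunits that rose most are short, Psmb6 at 2.54 kb and Psmb5 at 3.88 kb, and Psmb7, which was not called, spans 55.9 kb. Psmd14 and Psme4, at 88.7 and 109 kb, are the longest members tested. In each bin the members' median was above that of the other genes, and no test of that difference was made.

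**Figure D3:**
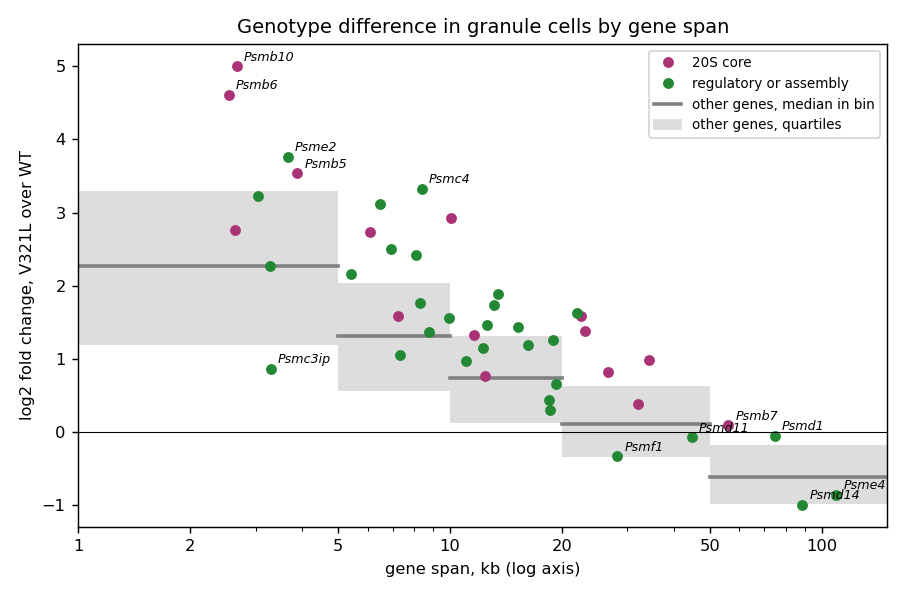
Log2 fold change in GCs, V321L over WT, against gene span on a log axis, with 1 point per tested member coloured by group, grey lines for the median of all other genes in each span bin and shading for their quartiles. Members run from 5.0 at Psmb10 (2.67 kb) down to −0.99 at Psmd14 (88.7 kb). In both the members and the other genes the median falls from the shortest bin to the longest.

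The relation to span was also described in other settings, each of which still differs between the genotypes in some measure. With every nucleus thinned to 1000 UMIs, rho was −0.85 over 41 members. There 31 rose and 2 fell, while of all 10664 genes tested 3418 rose and 3043 fell. In nuclei with a mitochondrial share under 0.5%, rho was −0.84 over 44 members. There 33 rose and 2 fell, while of all 12337 genes 4165 rose and 3409 fell. With V321L F2 and M1 only, whose mitochondrial share of 0.39% and 0.56% was still above that of every WT mouse, rho was −0.83 over 44 members. There 32 rose and 2 fell (median 1.16), while of all 12773 genes 4314 rose and 3413 fell. With F1 and M2 only, 40 of 45 rose and 2 fell (median 1.66), while of all 12523 genes 4566 rose and 3718 fell. The part of depth and of mitochondrial share in this relation was not tested.

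Genes that feed or assemble the proteasome moved about as often as all genes. From a list of 31 ubiquitin-proteasome partners, of which 30 were in the tables, 12 rose and 7 fell in GCs, with a median log2 fold change of 0.14, against 37.0% higher, 29.4% lower and a median of 0.13 over all genes tested. The ubiquitin genes Ubb (4.32) and Rps27a (4.17) rose, as did Pomp (2.86), which matures the 20S core. Nfe2l1, a transcription factor known to activate proteasome genes, rose by 1.13, and Nfe2l2 was not called (0.17). Ecpas (−1.11), an adaptor of the proteasome, and the ubiquitin ligases Ube3a (−1.1) and Ube3c (−0.57) fell. For comparison, all 81 ribosomal protein genes tested rose (median 3.99), and 69 of 72 oxidative phosphorylation genes rose and 1 fell (median 3.01), so the members' median lay between all genes and those families.

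In the other classes fewer members passed the count minimum. The median log2 fold change was above 0 in the classes given here except microglia. In other excitatory neurons 23 of 38 tested members rose (background 23.0%) and 2 fell (21.7%), with a median log2 fold change of 1.11. In GABAergic neurons 10 of 22 rose (background 16.9%), with a median of 0.92. There 0 fell by edgeR or DESeq2, while of all 5144 genes tested 714 fell by edgeR and 442 by DESeq2. Psmd14 was lower there at an unadjusted p of 0.0401 by edgeR. In astrocytes 15 of 28 rose (background 21.3%) and 1 fell (15.4%), with a median of 1.44. Gated astrocytes held 1995 CPM of GC markers and 3100 of other excitatory markers in WT, and 755 and 1564 in V321L mice. Microglia markers (154 and 172 CPM) and vascular markers (60.8 and 222) were higher in V321L astrocytes, and those of the remaining classes lower. The part of this in the astrocyte values was not tested. Oligodendrocytes and microglia had too few gated nuclei in some WT mice and were tested on clusters of nuclei. Per mouse, gated microglia were 2 to 22 in WT and 49 to 88 in V321L. In clusters they were 23 to 55 and 54 to 89. Gated oligodendrocytes were 8 to 42 and 103 to 202, against 34 to 88 and 107 to 207 in clusters. The clusters thus held more nuclei short of the gate in WT than in V321L mice. In the microglia cluster 304 of 368 gated nuclei were microglia by the gate. The part of this in the class values was not tested. In oligodendrocytes 11 of 25 rose (background 24.1%) and 2 fell (20.8%), with a median of 1.18. In microglia 1 of 7 rose (21.0%) and 1 fell (22.4%), with a median of −0.20. The 7 were Psmd1, Psmd14, Psmb2, Psme4, Psmd11, Psma3 and Psmc6. In GCs these genes were at −0.05, −0.99, 0.38, −0.86, −0.07, 0.82 and 0.65 in the same order. The microglia median is thus not comparable with medians over more members.

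These counts moved with depth and with single mice, and so did the number of members that passed the count minimum. With nuclei thinned to 1000 UMIs, 11 of 19 members rose in other excitatory neurons, 0 of 4 in GABAergic neurons and 6 of 14 in astrocytes. Of all genes tested there, 798 of 5000, 121 of 1525 and 656 of 3071 rose, in the same order. In GABAergic neurons 4 members are too few to set against that share. Without V321L F1, 4 of 13 rose in GABAergic neurons, 8 of 17 in astrocytes and 7 of 16 in oligodendrocytes. Of all genes, 637 of 4519, 910 of 4595 and 952 of 4221 rose there. In GABAergic neurons 5 of 15 rose without V321L M1 (all genes, 769 of 4544) and 5 of 14 without V321L M2 (642 of 4559). Without WT M1, 1 fell in GABAergic neurons (all genes, 713 of 4982) and 2 fell in astrocytes (1010 of 5589).

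Psma1, Psma7, Psmb5 and Psmd7 rose in GCs and in other excitatory neurons, GABAergic neurons, astrocytes and oligodendrocytes, out of 20 members tested in those 5 classes. The share of all genes that rose in all 5 classes was not computed, so whether this count is unusual was not tested. In each class alone, 16.9% (GABAergic neurons) to 37.0% (GCs) of all genes tested rose. Psmb5 had 4, 4, 3 and 1 UMIs in other excitatory neurons of WT F1, F2, M1 and M2 and 85, 34, 19 and 97 in the V321L mice. In astrocytes it had 0, 1, 0 and 1 and then 33, 22, 4 and 19 UMIs. In oligodendrocytes Psmb6 had no UMI in any WT mouse and 11, 14, 8 and 23 in the V321L mice. This was 9.18-fold against a floor of 3 UMIs over the WT group, a ratio that takes the V321L count as exact and is no bound.

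Psmd14 fell in other excitatory neurons (−0.91 ± 0.153 SE), astrocytes (−1.38 ± 0.270), oligodendrocytes (−1.27 ± 0.282) and microglia (−1.28 ± 0.380), as log2 fold changes, and was not called in GABAergic neurons (−0.59 ± 0.271). Its call in microglia was lost in 5 of 11 alternatives, with library sizes and without WT F1, WT M1, V321L F1 or V321L F2. Psme4 fell in other excitatory neurons (−1.06 ± 0.145) and oligodendrocytes (−0.69 ± 0.264, adjusted p = 0.0367 by edgeR), and was not called in GABAergic neurons (−0.36), astrocytes (−0.61) or microglia (−0.50). The call of Psme4 in oligodendrocytes was lost in 10 of 11 alternatives, with adjusted p = 0.151 by DESeq2, 0.129 with library sizes and 0.0824 with the replicate block. The relation to span was present in each class with over 20 members, with rho of −0.80 in other excitatory neurons, GABAergic neurons and oligodendrocytes and −0.87 in astrocytes.

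**Figure D4:**
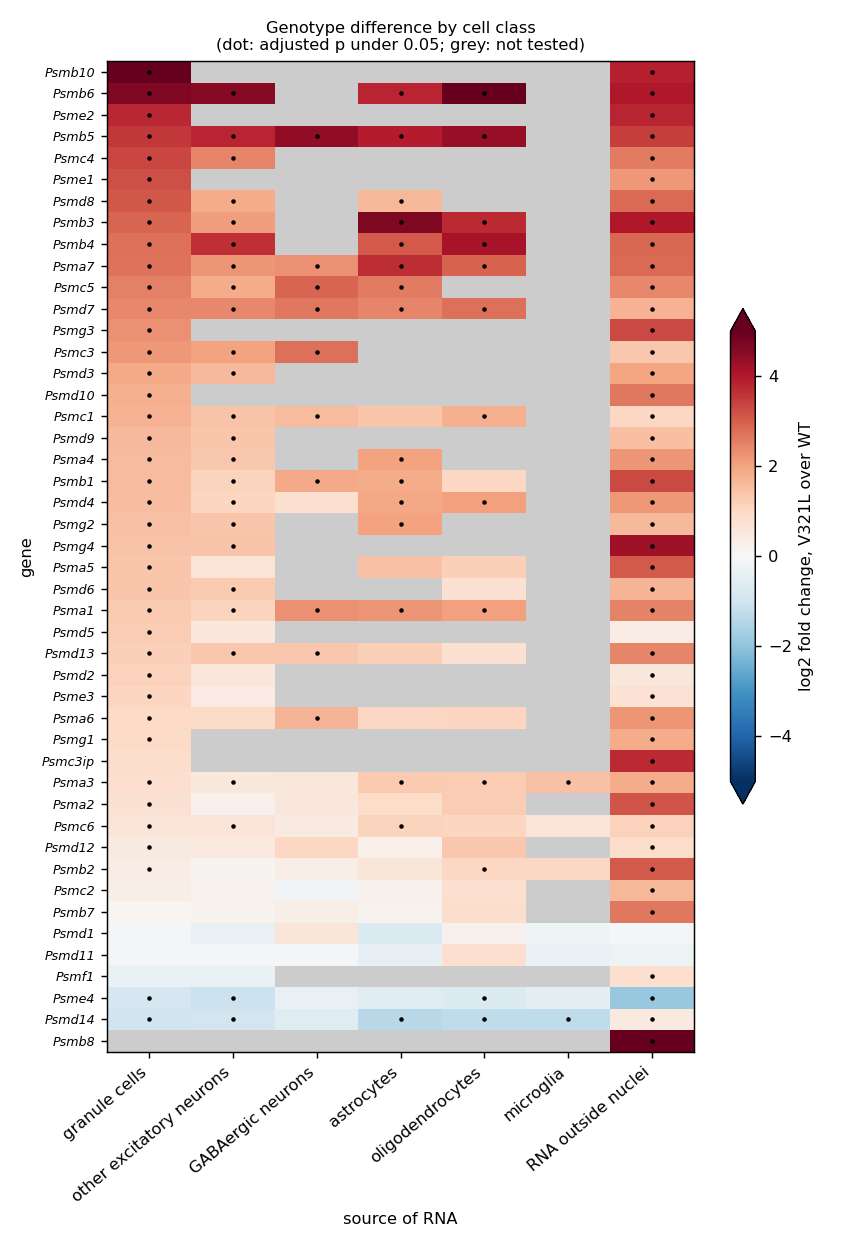
Log2 fold change, V321L over WT, of each member (rows, in the order of GCs) by class and in RNA outside nuclei (columns), from blue for lower to red for higher, with a dot where the adjusted p is under 0.05 and grey where the gene was not tested. Psmd14 is blue in all 6 classes and pale red in RNA outside nuclei. Psmb6 in oligodendrocytes and Psmb8 outside nuclei had 0 UMIs in every WT mouse, so their colours are not bounds.

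No member was called for a difference in its genotype effect between classes. The test of the class-by-genotype difference against GCs in edgeR called 0 of 45 members in other excitatory neurons (background 0.19%), GABAergic neurons (0.617%) and astrocytes (0.994%), with 6, 2 and 2 members at an unadjusted p under 0.05. The intervals were wide for scarce members. The difference of Psmd14 in astrocytes from GCs was −0.28 ± 0.324 (SE) and that of Psmb3 was 1.99 ± 1.23, on the log2 scale, so these tests do not show that the effects were equal. Between males and females in GCs 0 of 45 members were called (background 0.0%, or 0 of 13518 genes), and 0 members had an unadjusted p under 0.05.

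Outside GCs the immunoproteasome subunits differed in their counts. Psmb10 had 0 UMIs in other excitatory neurons of the 4 WT mice and 11, 4, 6 and 14 in V321L F1, F2, M1 and M2. In astrocytes it had 0 in WT and 5, 5, 2 and 1 in V321L mice, and in GABAergic neurons 2 in all WT and 18 in all V321L mice. Psmb9 had at most 4 UMIs per genotype in each of these classes. In microglia, the immune cells of the brain, Psmb8 had 0 UMIs in the 4 WT mice and 4, 2, 3 and 4 in the V321L mice. Microglia nuclei in clusters were 23 to 55 per WT mouse and 54 to 89 per V321L mouse, and 0 UMIs in so few nuclei limits the level weakly. In astrocytes Psmb8 had 0 UMIs in WT mice and 5 in V321L mice, found in 3 of the 4. It had 0 UMIs in GABAergic neurons, other excitatory neurons and oligodendrocytes of both genotypes.

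Levels of the members were also compared between classes within the same 8 mice. In other excitatory neurons 12 of 45 members were lower than in GCs (background 21.3%) and 1 was higher (13.6%). In GABAergic neurons 10 were lower (23.6%) and 1 higher (10.8%), and 9 were lower in astrocytes (28.8%), 3 in oligodendrocytes (24.6%) and 1 in microglia (19.4%). The share of members called was below or near that of all genes. With library sizes in place of TMM the counts lower were 7, 3, 0, 0 and 0. Of all genes, 2776 of 14210, 2059 of 13774, 2636 of 13985, 2393 of 14101 and 1131 of 14121 were lower there.

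Few of these differences held under each scaling and in each genotype alone. Psme4 was higher in other excitatory neurons than in GCs by 0.47 on the log2 scale, by 0.60 in WT mice only and by 0.51 in V321L mice only. Psmb10 was higher in GABAergic neurons by 1.42, by 1.61 with library sizes and by 1.36 in V321L mice only, and no member was called in WT mice only. Psmd14 was lower in microglia than in GCs by 1.1, by 0.73 in WT mice only and by 1.32 in V321L mice only, but it was not called with library sizes.

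RNA outside nuclei moved with the genotype as well. Barcodes with at most 100 UMIs, which hold RNA free in the suspension, carried 1818 to 2180 CPM of proteasome RNA in WT and 5253 to 7499 in V321L libraries. In the same unit, GCs carried 1159 to 1349 and 2188 to 3171. Of 46 members tested outside nuclei 42 rose (background 36.4%) and 1 fell (34.6%), with a median log2 fold change of 2.20. Psmb8 had 0 UMIs in the 4 WT libraries and 31, 20, 14 and 24 in V321L F1, F2, M1 and M2. This was 7.69-fold against a floor of 3 UMIs over the WT group, a ratio that takes the V321L count as exact and is no bound. The median was also 2.20 with Psmb8 at that ratio.

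Some members differed in size between GCs and RNA outside nuclei, and with TMM Psmd14 differed in direction. These values come from the same libraries and are set side by side without a test. Psmb7 was at 39.97 to 57.0 CPM outside nuclei in WT and 190 to 300 in V321L libraries (log2 fold change 2.63 ± 0.205 SE, adjusted p = 1.57e-12 by edgeR), while it was not called in GCs. Psmd14 rose outside nuclei with TMM (0.48 ± 0.170 SE, adjusted p = 0.0127 by edgeR) and fell in GCs. With library sizes alone the genotypes overlapped outside nuclei, at 90.9 to 135 CPM in WT and 109 to 136 in V321L libraries. Psme4 fell in both, from 78.1 to 143 down to 21.3 to 28.5 CPM outside nuclei (−1.90 ± 0.182 SE). Over the 45 members tested in both, the log2 fold changes had r = 0.65. Scaled by library size, Psmb10 was at 64.6 to 102 CPM outside nuclei in V321L libraries and at 5.42 to 13.7 in V321L GCs. Psmb5 was at 342 to 612 and 53.5 to 146, and Psmb6 at 227 to 383 and 39.6 to 77.5. In WT mice Psmb10 was at 4.04 to 11.8 outside nuclei and at 0 to 0.805 in GCs. Some members went the other way, as Psme4, at 203 to 223 in V321L GCs. How much of the GC values came from RNA outside nuclei was not tested. In these sums over a whole suspension, fewer cells of a type and less RNA per cell cannot be told apart.

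No difference in promoter accessibility was called for the same genes in GCs. Counts in peaks within 1 kb of the start were tested for the 47 members with such a peak in all 8 libraries, and 0 were called by edgeR (background 0.0153%, or 2 of 13035 genes), 2 had an unadjusted p under 0.05, and DESeq2 also called 0. The log2 fold changes ran from −0.35 to 0.35 with a median of 0.02 and a median SE of 0.122, and the widest 95% interval reached 0.48 to either side of its estimate, on 540 or more counts per promoter over the 8 libraries.

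Psmb6 had 56.7 to 66.7 CPM at its promoter in WT and 52.2 to 77.7 in V321L GCs, against a 4.61 log2 rise in RNA. Psmb10 had 20.8 to 27.5 and 19.4 to 33.7, and Psmd14 had 56.7 to 67.3 and 55.7 to 61.7. The groups overlapped at all 3 promoters. Psmb8 and Psmb9, at or near 0 in RNA, had open promoters at 17.4 to 25.7 and 44.4 to 57.9 CPM in WT GCs. The smallest unadjusted p among members was at Psmg1, where every V321L mouse lay below every WT mouse (−0.26 ± 0.0887 SE, adjusted p = 0.522 by edgeR). Over 45 members the RNA and accessibility changes had r = 0.06. A start shared with a neighbouring gene shares its peak, and Psma6, Psmf1 and Psmb1 have wide start intervals in the files.

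**Figure D5:**
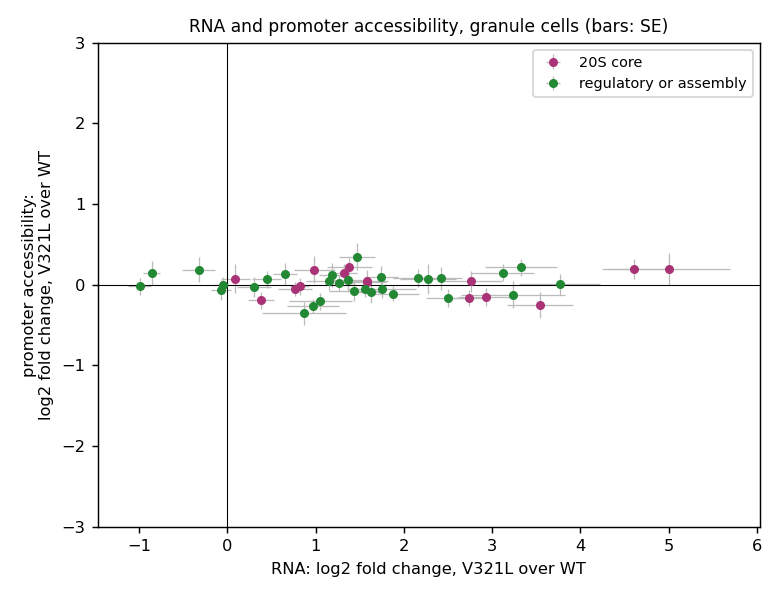
Log2 fold change of RNA (horizontal) and of promoter accessibility (vertical), V321L over WT, in GCs, with 1 point per member tested in both, coloured by group, and bars for the SE. The points spread from −0.99 to 5.0 in RNA and lie between −0.35 and 0.35 in accessibility.

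Motifs were counted in the promoter windows as a description. Of the 50 members, 42 had 1 or more promoters in the RefSeq table (250 bases before to 50 after the start), 45 in all, set against 32851 promoters of all genes and searched on both strands. The ETS motif CCGGAAG was in 35.6% of members' promoters and 8.86% of all. The motif of NRF1 (nuclear respiratory factor 1) was in 15.6% and 4.6%. These are not counts of the kind of motif read by Nfe2l1, which are given below. The SP/KLF box GGGCGG was in 53.3% and 35.7%, the NF-Y box CCAAT in 33.3% and 37.4%, and TATAAA in 8.89% and 13.6%.

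The antioxidant response core TGACNNNGC, of the kind read by Nfe2l1, was in 13.3% of members' promoters and 12.4% of all. In Psmb6 and Psme4 the match lies outside the bases printed above. Its 6 genes were Psmb5, Psmb6, Psmc6, Psmd9, Psmd12 and Psme4, of which 5 rose and Psme4 fell. Of all 45 tested members 37 rose, and of all genes tested 37.0%, so the count does not set these genes apart from the other members. A match of letters is no evidence that a factor binds.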

How the data were processed

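RNA and accessible chromatin were measured in 8 Multiome libraries, 1 per mouse. The deposited counts, per the file headers, are UMIs per gene and fragments per peak from Cell Ranger ARC 2.0.2 against mm10, with peaks called in each library. The submitters' processing notes also name Seurat and Signac. Nuclei were kept by the limits of the study and at least 500 UMIs, 250 genes and 500 ATAC counts, without doublets, and gated on marker UMIs (at least 2 UMIs from 2 markers and 2 times those of any other class). Counts were summed per mouse and class, genes with at least 40 UMIs were kept, and genotypes were compared with the edgeR 4.0.16 quasi-likelihood test in R 4.3.3 with TMM, Benjamini-Hochberg adjusted over all genes tested. DESeq2 1.42.0 was an alternative. Classes were tested where every mouse had 20 nuclei. Oligodendrocytes, microglia and RNA outside nuclei were added after the data were seen. Scripts were tested on simulated data. Any member could be named. The members and lists were chosen with earlier results of these data known. The interval of the Psmb10 ratio covers counting error only, and that of promoter accessibility rests on the edgeR SE between mice. Floors cover the counting error of the WT count alone, with the V321L count taken as exact.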

Additional observations from a re-analysis of the deposited data

Results flagged for a closer look

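In 5 of 90 groups of 4 mice, 1 mouse lay far from the other 3 in GCs, where chance alone gives about 4 at 1 in 20. Values are TMM-scaled CPM. Psmf1 was at 40.2 in WT M2 and at 23.6 to 24.3 in the other WT mice. Psmd9 was at 22.6 in WT M1 against 14.8 to 15.3, Psme1 at 3.35 in WT M1 against 0.394 to 0.806, and Psmd2 at 5.02 in WT M1 against 13 to 13.8. In V321L mice, Psmg2 was at 28.4 in M1 against 23.7 to 24.2. WT M1, the shallowest library, held 3 of the 5.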

How the results depend on the processing

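In GCs, 31 to 42 members rose and 2 to 3 fell under every alternative, and 34 to 38 rose and 2 fell without any 1 mouse. The calls over all genes moved too. With library sizes, where 42 members rose, 6945 of 13518 genes rose. In males only and with thinned nuclei, where 31 members rose, 2721 of 11545 and 3418 of 10664 genes rose. Of the 39 called members, 31 were called in all 25 alternatives and 0 reversed. Psmb2, Psmd12 and Psme3 lost the call most often. Members that were not called changed sign, as log2 fold changes. Psmd1 was at 0.375 with library sizes, 0.0467 with no count minimum and 0.0113 with V321L F1 and M2 only. Psmd11 was at 0.357 with library sizes and 0.0244 with no count minimum, and Psmf1 at 0.103 with library sizes. Psmb7 was at −0.041 in males, −0.0159 with thinned nuclei, −0.115 under 0.5% mitochondrial share, −0.258 with V321L F2 and M1 only, and −0.0342 and −0.000815 without V321L F1 or M2 (up to 0.213 without V321L M1). Psmc2 was at −0.127 with V321L F2 and M1 only. The cause was not tested.

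With nuclei thinned to 1000 UMIs, fewer members were tested. In other excitatory neurons 11 of 19 rose and 1 fell, where 763 of 5000 genes fell. GABAergic neurons had 0 of 4 higher and 0 lower, where 78 of 1525 genes fell. In astrocytes 6 of 14 rose and 0 fell, where 298 of 3071 genes fell. In oligodendrocytes 1 of 25 fell with DESeq2, with library sizes and with the replicate block. There 765, 806 and 858 of 4779 genes fell, in the same order. In microglia 2 of 7 rose and 0 fell with library sizes, where 992 of 3403 genes rose and 550 fell. Without any 1 mouse, 18 to 24 rose in other excitatory neurons. In GABAergic neurons 4 to 10 of 13 to 22 members rose and 0 to 1 fell. Of 4519 to 4982 genes there, 637 to 874 rose and 469 to 713 fell. In astrocytes 8 to 16 of 17 to 28 rose and 1 to 2 fell. Of 4545 to 5589 genes there, 909 to 1197 rose and 496 to 1010 fell. In oligodendrocytes 7 to 14 of 14 to 25 rose and 1 to 2 fell. Of 3782 to 4690 genes there, 922 to 1242 rose and 680 to 964 fell. In microglia 0 to 2 of 6 to 7 rose and 0 to 1 fell. Of 2784 to 3203 genes there, 570 to 794 rose and 412 to 764 fell. Outside nuclei 3 fell with library sizes, where 5345 of 12501 genes fell. Calls over all genes moved with the setting as well. In other excitatory neurons 1762 of 9768 genes rose without WT F2 and 2522 of 9394 without V321L M1.

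Against GCs, with WT mice only, 36 members were tested. Of them 3 were higher and 0 lower in other excitatory neurons, where 1689 and 1792 of 11191 genes were. GABAergic neurons had 0 and 0 (all genes, 844 and 1557 of 10611), and astrocytes 1 and 1 (1041 and 1532 of 10660). In oligodendrocytes 0 were lower (887 of 10991). With V321L mice only, 45 members were tested, and 3 were lower in other excitatory neurons (all genes, 1298 of 12985). GABAergic neurons had 2 higher and 4 lower (1399 and 1910 of 12640). In astrocytes, oligodendrocytes and microglia 1, 3 and 3 were lower (2776 of 12902, 3507 of 13002 and 2403 of 12996). With library sizes, 2 of 45 were higher and 7 lower in other excitatory neurons (all genes, 2084 and 2776 of 14210). GABAergic neurons had 3 and 3 (2157 and 2059 of 13774), and astrocytes 2 and 0 (3138 and 2636 of 13985). Oligodendrocytes had 1 and 0 (2248 and 2393 of 14101), and microglia 2 and 0 (2058 and 1131 of 14121). With clusters, 2 of 45 were higher in GABAergic neurons (all genes, 1732 of 14125).

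The shared mouse labels did not pair the samples (correlations of deviations 0.154, 0.388, −0.157 and 0.0582 for F1, F2, M1 and M2), and with the label as replicate block 37 members rose and 2 fell in GCs. Depth limits the scarce members, and 5 were too low to test.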
